A study of Mus musculus with 24 samples.

Results

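The receptors for BAFF, APRIL and CD40 ligand, with the TRAF adaptors and the NF-kB subunit they act through, were described here as a family of 10 genes chosen by name: Tnfrsf13c, Tnfrsf13b, Tnfrsf17, Cd40, Cd27, Tnfrsf1b, Traf1, Traf2, Traf3 and Nfkb2. All 10 were among the 23234 named genes of each of 2 tables of FPKM, a read level divided by transcript length and library size. The libraries came from splenic B cells of C57BL/6 mice, taken straight from the animal. Each table held 3 control (CTL) libraries and 3 from mice labelled Tet2/Tet3-deficient, titled Tet DKO in CD93-negative cells and Tet KO in CD93-positive cells. CD93 marks immature and transitional B cells, and Tet2 and Tet3 are enzymes that oxidise methylated cytosine in DNA. The labels give no allele, Cre driver, age, sex or pooling, and do not say whether libraries came from separate mice. The p-values therefore measure the spread between these libraries only, which the CD93-positive fit under the authors' scaling shares among genes of like expression. In all, 12 of the 24 labelled samples were used, in 4 of 8 groups, and the other 12 were not analysed here.

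BAFF binds BAFF-R (Tnfrsf13c), TACI (Tnfrsf13b) and BCMA (Tnfrsf17), whereas APRIL binds TACI and BCMA. BAFF-R keeps mature B cells alive, CD40 receives help from T cells, and TACI and BCMA serve later steps of B cell activation and plasma cell survival. In resting cells TRAF3 and TRAF2 keep the kinase NIK at low levels, and engagement of BAFF-R or CD40 relieves this, so that the product of Nfkb2 is cut to p52 in the noncanonical NF-kB pathway. Traf1 and Nfkb2 are themselves known NF-kB target genes.

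The labels were checked against markers. Cd93 lay between 3.32 and 4.65 FPKM in the CD93-negative libraries and between 27.98 and 59.9 in the CD93-positive ones. Whole-gene FPKM does not show a deletion whose exons are not named: Tet2 measured 6.36 to 8.79 FPKM in control and 8.15 to 9.94 in deficient CD93-negative libraries, and Tet3 14.8 to 20.1 and 14.9 to 15.7, both overlapping. In CD93-positive libraries Tet2 overlapped at 3.10 to 3.47 and 1.80 to 3.55 FPKM, whereas Tet3 was lower in deficient libraries, at 12.1 to 14.1 and 3.84 to 9.92. Deficient CD93-positive replicate 3 stood apart: its upper quartile of FPKM was 15.4 against 25.8 to 30.05 in the other 5, and its values are given with each result. By Xist and Ddx3y, all CD93-negative libraries were male, whereas in the CD93-positive table control replicates 1 and 2 were male and the other 4 libraries female. Several marker sums of other cells differed between the genotypes under the authors' scaling. Plasma cell markers summed to 88.1 to 120 FPKM in control and 365 to 401 in deficient CD93-negative libraries, and to 183 to 247 and 906 to 1566 in CD93-positive ones. Igj alone went from 4.49 to 9.78 up to 192 to 221 FPKM in CD93-negative libraries. In CD93-positive libraries Igj went from 27.0 to 40.6 up to 688 to 1148. Sdc1, of the same list, overlapped in both, at 3.47 to 5.73 and 4.59 to 6.85 FPKM, and 16.7 to 19.6 and 10.6 to 22.1. Red cell markers summed to 15068 to 64340 FPKM in control and 3296 to 15664 in deficient CD93-positive libraries, with overlap. They moved the other way in CD93-negative libraries, from 41.9 to 60.02 up to 170 to 198. There, none of the 6 red cell markers tested was at 1 FPKM or more in all 6 libraries. Neutrophil markers summed to 1348 to 1879 FPKM in control and 395 to 1232 in deficient CD93-positive libraries. The part of these cells in the changes below was not tested, and in bulk RNA fewer cells of a type and less RNA per cell cannot be told apart.

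Because of these level shifts each tested family member is compared under the authors' scaling and again after each library was divided by its upper quartile. So are most counts of the pathway lists. Changes are deficient minus control on log2(FPKM + 1), from limma fitted within each table with Benjamini-Hochberg adjustment over all tested genes, and a gene was called at an adjusted p of at most 0.05. The median change of all tested genes was 0.11 in CD93-negative and -0.22 in CD93-positive cells, and -0.08 and -0.01 after rescaling. Rescaled Tet3 no longer overlapped in CD93-negative libraries, at 18.8 to 19.7 in control and 13.5 to 14.8 in deficient ones. Its rescaled change there was -0.41 (limma adjusted p = 0.00180). The tables were scaled separately, so no difference between the populations was tested.

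The 250 bases before the RefSeq start (GRCm38.p6) are shown for the 4 genes on which the results turn: Traf1, which was higher, and Tnfrsf13c, Traf3 and Nfkb2, which were lower after rescaling. Capitals mark matches to the kappaB consensus, the DNA motif of NF-kB, searched on both strands.
Traf1 (chr2:34961773-34962022, minus strand): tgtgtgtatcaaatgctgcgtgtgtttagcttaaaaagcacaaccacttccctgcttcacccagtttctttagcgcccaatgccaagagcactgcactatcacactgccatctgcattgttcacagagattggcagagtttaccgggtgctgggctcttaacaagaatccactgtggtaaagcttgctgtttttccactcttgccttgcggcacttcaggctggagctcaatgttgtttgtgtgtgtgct
Tnfrsf13c (chr15:82224381-82224630, minus strand): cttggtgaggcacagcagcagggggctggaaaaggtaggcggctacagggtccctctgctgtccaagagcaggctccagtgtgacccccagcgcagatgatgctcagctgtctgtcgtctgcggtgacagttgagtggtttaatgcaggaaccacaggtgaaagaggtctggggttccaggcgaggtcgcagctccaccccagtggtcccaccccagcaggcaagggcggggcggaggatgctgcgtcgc
Traf3 (chr12:111166120-111166369, plus strand): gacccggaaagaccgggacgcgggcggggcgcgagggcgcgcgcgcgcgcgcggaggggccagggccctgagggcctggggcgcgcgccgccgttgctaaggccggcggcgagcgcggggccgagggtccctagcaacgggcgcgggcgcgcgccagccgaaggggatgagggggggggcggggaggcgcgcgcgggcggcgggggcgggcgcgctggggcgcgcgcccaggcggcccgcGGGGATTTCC
Nfkb2, first of 3 starts (chr19:46304487-46304736, plus strand): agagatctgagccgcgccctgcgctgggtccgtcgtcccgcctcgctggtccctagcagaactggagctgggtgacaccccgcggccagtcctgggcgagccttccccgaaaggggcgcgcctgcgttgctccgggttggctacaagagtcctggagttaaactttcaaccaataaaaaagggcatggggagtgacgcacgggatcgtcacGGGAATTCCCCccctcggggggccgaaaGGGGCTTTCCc
The motif was in 7.251% of 32851 mouse promoters of this length. Among the 9 family members with an entry, it was in the windows of 2, Traf3 and Nfkb2. In Nfkb2 the first window held 3 matches, of which a pair overlaps by all but 1 base, and each of the other starts held 1. Traf3 had 49 CpG dinucleotides in its window, more than in 99.9% of promoters, against 21 in Nfkb2, 10 in Tnfrsf13c, 4 in Traf1 and a median of 6 over all promoters. These matches describe letters, not binding.

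**Figure D1:**
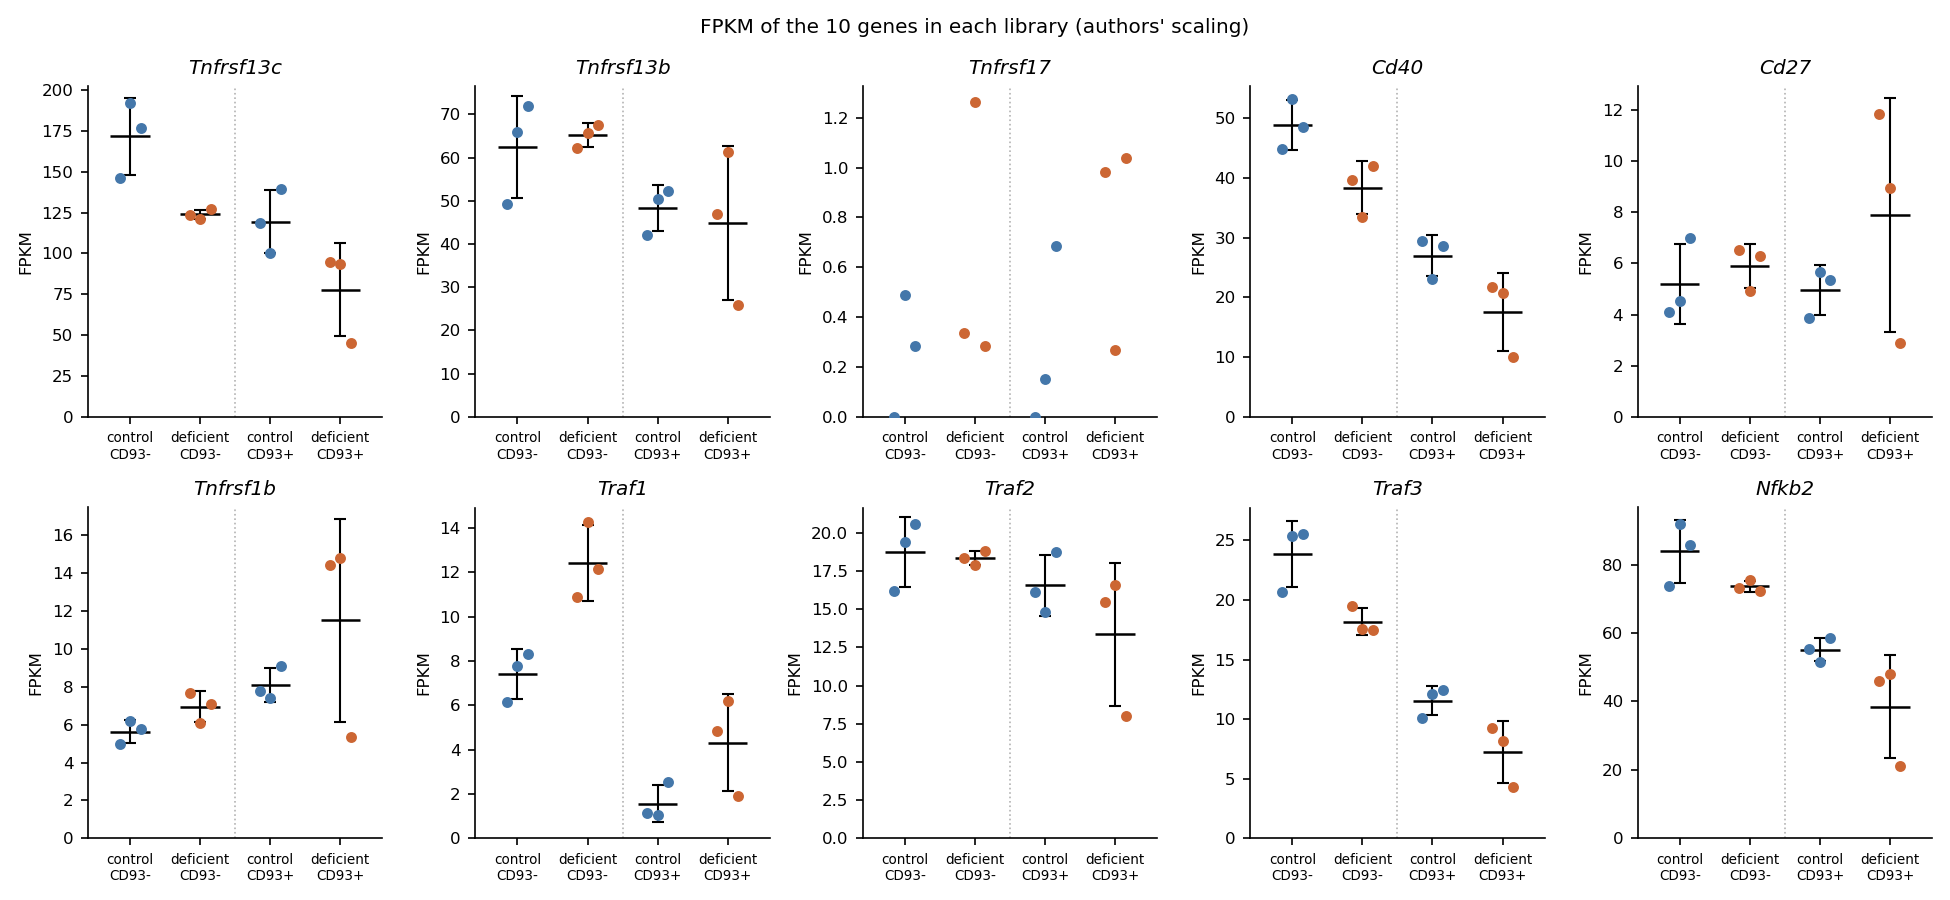
FPKM of each gene (vertical axes, starting at 0) in the control (blue) and deficient (orange) libraries of CD93-negative and CD93-positive B cells. Points are libraries, horizontal lines are means and bars are SD (n = 3), both left out for Tnfrsf17, which is listed at 0 in 2 libraries. Traf1 is higher in all 3 deficient CD93-negative libraries, and deficient CD93-positive replicate 3 is the lowest of its group for 9 of the 10 genes.

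BAFF-R had the highest FPKM of the family and was lower in deficient CD93-negative cells. Tnfrsf13c measured 146, 192 and 177 FPKM in control libraries, against 124, 121 and 127 FPKM in deficient CD93-negative libraries. All 3 deficient libraries lay below all 3 controls. The log2 change was -0.46 (SE 0.14, limma adjusted p = 0.0315), and -0.68 after rescaling (adjusted p = 4.37e-05). This call was lost in 6 of 16 alternatives, with adjusted p from 4.37e-05 to 0.142. In CD93-positive cells Tnfrsf13c measured 119, 101 and 139 FPKM in control libraries, against 94.9, 93.8 and 45.0 FPKM in deficient libraries, again without overlap. There the change of -0.68 (SE 0.41) did not pass the limma test (adjusted p = 0.537), whereas the rescaled change of -0.43 did (adjusted p = 0.0172, range over 20 alternatives 0.00724 to 0.9995).

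TACI did not pass the test in either population. Tnfrsf13b measured 49.2, 66.0 and 71.9 FPKM in control libraries, against 62.3, 65.8 and 67.6 FPKM in deficient CD93-negative libraries, and 42.2, 50.4 and 52.2 against 47.0, 61.3 and 26.0 FPKM in CD93-positive ones. The groups overlapped in both populations. Its changes were 0.08 (SE 0.15, limma adjusted p = 0.768) and -0.18 (SE 0.40, adjusted p = 0.891), and both changed sign on rescaling, to -0.14 and 0.06, without passing the test. The ratio of TACI to BAFF-R within a library does not depend on scaling. It was 0.337, 0.344 and 0.406 in control and 0.504, 0.542 and 0.532 in deficient CD93-negative libraries, a log2 difference of 0.54 without overlap. With 3 libraries against 3 the two-sided exact permutation test cannot go below p = 0.1, which this ratio reached (adjusted p = 0.114 over 24 ratios). In CD93-positive cells the ratio overlapped between groups, at 0.355 to 0.501 in control and 0.495 to 0.654 in deficient libraries.

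BCMA stayed near the bottom of the scale. In CD93-negative cells Tnfrsf17 stood at 0, 0.488 and 0.283 FPKM in the controls against 0.337, 1.26 and 0.284 FPKM in the deficient libraries. The CD93-positive values were 0, 0.151 and 0.685 FPKM against 0.981, 0.269 and 1.04 FPKM. The groups overlapped in both, and the gene fell below the filter of 1 FPKM in 3 libraries, so it was not tested.

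CD40 fell alongside BAFF-R after rescaling. Cd40 measured 44.8, 53.2 and 48.5 FPKM in control libraries, against 39.6, 33.5 and 42.0 FPKM in deficient CD93-negative libraries. In CD93-positive cells the values were 29.4, 23.0 and 28.6 against 21.8, 20.7 and 10.002 FPKM. Neither population showed overlap. The changes of -0.34 (SE 0.13, limma adjusted p = 0.0933) and -0.66 (SE 0.38, adjusted p = 0.491) did not pass, and the rescaled changes of -0.56 (adjusted p = 0.00280) and -0.43 (adjusted p = 0.0178) did. Over all alternatives its adjusted p ran from 0.00203 to 0.455 in CD93-negative and from 0.0178 to 0.9995 in CD93-positive cells. The ratio of Cd40 to Tnfrsf13c overlapped between groups in both populations, with log2 differences of 0.11 (exact permutation p = 0.3) and -0.02 (p = 0.9).

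CD27, a receptor for CD70 also found on T cells, was low. Cd27 measured 4.10, 4.52 and 6.99 FPKM in control libraries, against 6.51, 4.91 and 6.29 FPKM in deficient CD93-negative libraries. In CD93-positive cells it measured 3.86, 5.68 and 5.35 against 11.8, 8.93 and 2.89 FPKM. Groups overlapped in both, and neither change passed the limma test (0.17, SE 0.18, adjusted p = 0.556, and 0.42, SE 0.33, adjusted p = 0.646). Nor did the rescaled changes of -0.01 (adjusted p = 0.955) and 0.61 (adjusted p = 0.146). Without deficient replicate 3 the CD93-positive change was called (adjusted p = 0.0282). Tnfrsf1b, which encodes the TNF receptor TNFR2, measured 4.98, 6.18 and 5.75 against 7.66, 6.06 and 7.11 FPKM in CD93-negative cells. In CD93-positive cells it measured 7.76, 7.41 and 9.09 FPKM in control libraries, against 14.4, 14.8 and 5.34 FPKM in deficient libraries, where 2 libraries were above every control and replicate 3 below. Its changes of 0.26 (SE 0.14, limma adjusted p = 0.229) and 0.35 (SE 0.35, adjusted p = 0.731) did not pass. Nor did the rescaled CD93-negative change of 0.07 (adjusted p = 0.596). After rescaling the CD93-positive groups no longer overlapped and the change of 0.56 passed (adjusted p = 0.0402, range over 20 alternatives 0.0111 to 0.9995).

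Among the adaptors, Traf1 rose in both populations and was the only family member called in both under the authors' scaling. TRAF1 is an inducible adaptor that pairs with TRAF2. Traf1 measured 6.16, 7.77 and 8.30 FPKM in control libraries, against 10.9, 14.2 and 12.1 FPKM in deficient CD93-negative libraries, a 1.68-fold ratio of means without overlap. The log2 change was 0.68 (SE 0.15, limma adjusted p = 0.00678), and 0.47 after rescaling (adjusted p = 0.0102). It was called in all 16 alternatives, with adjusted p up to 0.0383. In CD93-positive cells Traf1 measured 1.13, 1.04 and 2.53 FPKM in control libraries, against 4.85, 6.18 and 1.92 FPKM in deficient libraries. Deficient replicate 3 lay below control replicate 3, so the groups overlapped, and after rescaling they did not. The change was 1.001 (SE 0.28, limma adjusted p = 0.0135), and 1.16 after rescaling (adjusted p = 0.0212). That call was lost in 9 of 19 alternatives, with adjusted p from 0.00644 to 0.948, the highest being the fit with sex as a covariate, where the change was 0.49 (SE 0.43), and 0.73 with rescaling (adjusted p = 0.168). The only female control, replicate 3, had the highest Traf1 of the controls. The CD93-positive SE of 0.28 came from a spread shared by genes of like expression, not from Traf1 alone. With no trend, where all genes share the same spread, it was 0.39 (limma adjusted p = 0.332).

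T cells also express Traf1, Cd27 and Tnfrsf1b, and myeloid cells Traf1 and Tnfrsf1b. T cell markers summed to 41.0 to 68.6 FPKM in control and 77.5 to 83.3 in deficient CD93-negative libraries. Of the 11 at 1 FPKM or more in all 6, 4 were higher, against 18.7% of all genes. Cd3g, Cd28 and Thy1 were also called higher but were not at 1 FPKM in every library. The CD93-positive sums were 172 to 211 in control and 91.8 to 271 in deficient libraries. None of the 14 at 1 FPKM or more in all 6 was called there. The 1 of 16 called higher was below 1 FPKM in some library. Without deficient replicate 3, 7 of 16 were higher, against 487 of 11107 genes. Macrophage and monocyte markers summed to 34.2 to 55.1 and 75.8 to 81.4 FPKM in CD93-negative cells, and to 177 to 292 and 126 to 329 in CD93-positive cells. No marker of these lists was at 0 in all libraries of a table, and their part in the Traf1 change was not tested.

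Traf2, the adaptor that recruits the ubiquitin ligases cIAP1 and cIAP2, did not pass under the authors' scaling. It measured 16.2, 19.4 and 20.6 against 18.3, 17.9 and 18.8 FPKM in CD93-negative cells, and 16.1, 14.8 and 18.7 against 15.5, 16.6 and 7.99 FPKM in CD93-positive cells. Its changes were -0.02 (SE 0.13, limma adjusted p = 0.939) and -0.35 (SE 0.36, adjusted p = 0.749), and after rescaling -0.23 (adjusted p = 0.0176) and -0.12 (adjusted p = 0.322). Traf3, the inhibitor of NIK, was lower in every deficient library than in any control. It measured 20.7, 25.4 and 25.6 FPKM in control libraries, against 19.5, 17.5 and 17.5 FPKM in deficient CD93-negative libraries, and 10.1, 12.1 and 12.4 against 9.27, 8.20 and 4.34 FPKM in CD93-positive ones. Changes of -0.37 (SE 0.13, limma adjusted p = 0.0661) and -0.65 (SE 0.35, adjusted p = 0.452) did not pass, whereas the rescaled changes of -0.58 (adjusted p = 8.14e-04) and -0.44 (adjusted p = 0.0365) did. Its adjusted p ran from 8.14e-04 to 0.250 and from 0.0365 to 0.9995 over the alternatives.

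**Figure D2:**
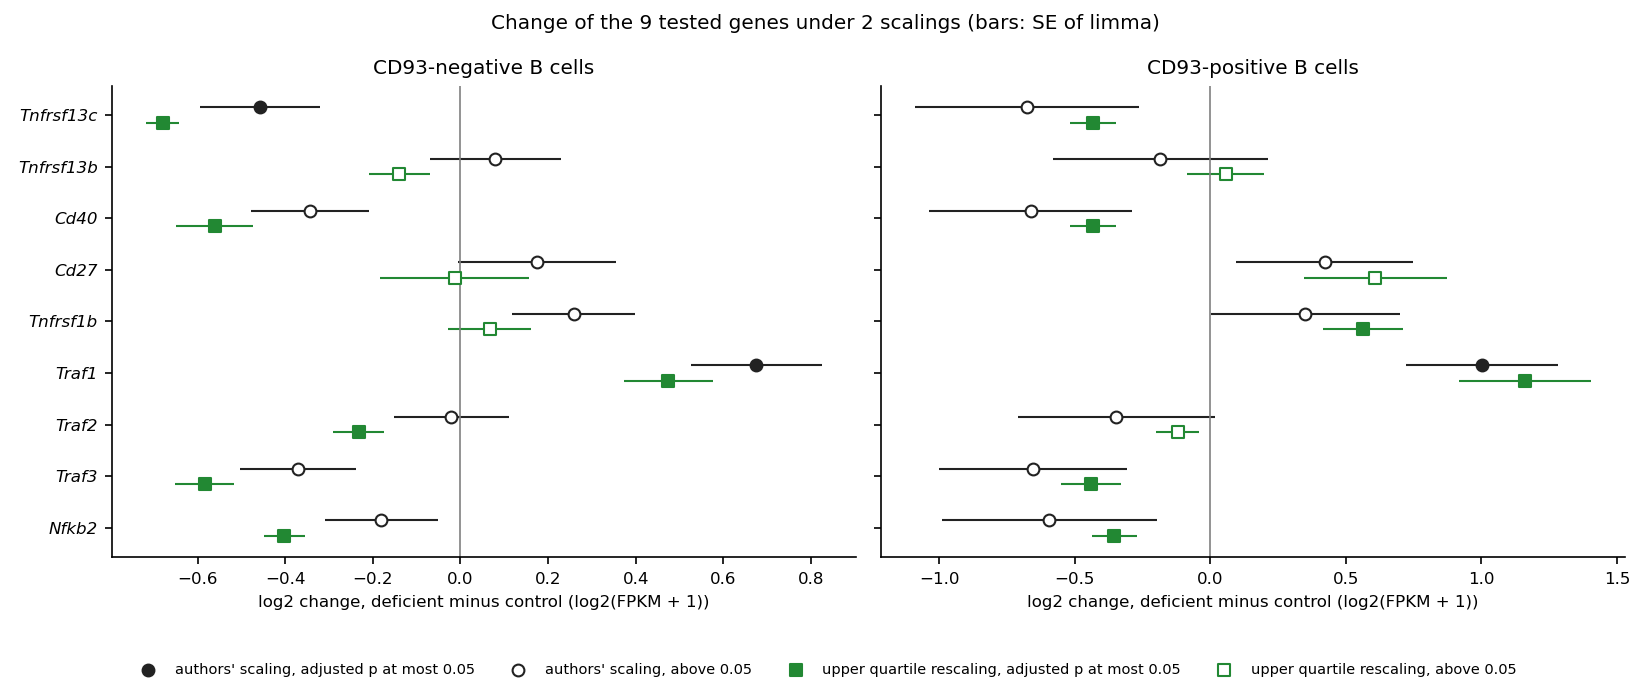
Log2 change of the 9 tested genes (horizontal axis, deficient minus control) in CD93-negative and CD93-positive B cells under the authors' scaling (black circles) and upper quartile rescaling (green squares). Bars are the SE of limma and filled symbols have an adjusted p of at most 0.05. Traf1 lies right of 0 in both, and Tnfrsf13c, Cd40, Traf3 and Nfkb2 lie left of 0 in both.

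The noncanonical subunit gene Nfkb2 measured 73.9, 92.0 and 85.9 FPKM in control libraries, against 73.0, 75.6 and 72.3 FPKM in deficient CD93-negative libraries, with overlap. In CD93-positive cells it measured 55.3, 51.7 and 58.6 against 46.1, 48.2 and 21.2 FPKM, without overlap. The changes of -0.18 (SE 0.13, limma adjusted p = 0.372) and -0.59 (SE 0.40, adjusted p = 0.586) did not pass. After rescaling, -0.40 (adjusted p = 8.14e-04) and -0.35 (adjusted p = 0.0290) did, over ranges of 5.67e-04 to 0.673 and 0.0211 to 0.9995.

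Counted together, 2 of the 9 tested genes were called in CD93-negative cells under the authors' scaling, 1 higher and 1 lower. The background there was 21.5% of 10960 genes, 18.7% higher and 2.79% lower. After rescaling 6 were called, 1 higher and 5 lower, against 40.9% of all genes, 17.1% higher and 23.8% lower. In CD93-positive cells 1 was called, higher, against 3.21% of 11250 genes (1.67% higher and 1.54% lower). After rescaling 2 were higher and 4 lower, against 20.7% of all genes (11.4% higher and 9.34% lower). After rescaling 4 genes were lower in both populations, Tnfrsf13c, Cd40, Traf3 and Nfkb2, and Traf1 was higher in both. Without deficient replicate 3 the CD93-positive fit called 3 members, all higher: Cd27 (0.94), Tnfrsf1b (0.78) and Traf1 (1.38). Of all 11107 genes tested there, 487 were called higher and 136 lower. In that fit 7 of 16 T cell markers were also higher, with a list median of 0.58. With rescaling as well, Tnfrsf13c (-0.38) and Cd40 (-0.38) joined the 3 members, whereas Traf3 (limma adjusted p = 0.0856) and Nfkb2 (adjusted p = 0.0575) were not called. Of all 11107 genes, 899 were then called higher and 648 lower. With sex added to the rescaled CD93-positive fit, Tnfrsf13c alone of the family was called (adjusted p = 0.0385).

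Ratios of 2 genes of the same library, which no scaling can move, mostly separated the groups. Of 24 ratios tested per population, 21 in CD93-negative and 17 in CD93-positive cells did not overlap. Separation was therefore not particular to the 3 ratios given next. Traf1 to Traf2 was 0.381, 0.401 and 0.403 in control and 0.594, 0.795 and 0.646 in deficient CD93-negative libraries, and 0.0701, 0.0699 and 0.135 against 0.313, 0.373 and 0.240 in CD93-positive ones. The log2 differences were 0.77 and 1.80, without overlap, deficient replicate 3 included. Traf3 to Traf2 was lower in deficient libraries without overlap, from 1.24 to 1.31 down to 0.931 to 1.06 in CD93-negative cells and from 0.628 to 0.816 down to 0.495 to 0.599 in CD93-positive cells (log2 differences -0.37 and -0.36). Nfkb2 to Nfkb1, the noncanonical against the canonical precursor, went from 1.27 to 1.39 down to 0.880 to 0.929, and from 0.939 to 1.05 down to 0.790 to 0.887 (log2 differences -0.54 and -0.30). The denominator moved too: Nfkb1 in CD93-negative cells went from 53.2 to 70.7 up to 80.7 to 82.1 FPKM, without overlap. Its change there was 0.36 (SE 0.14, limma adjusted p = 0.0884), and 0.13 after rescaling (adjusted p = 0.0295). In CD93-positive cells Nfkb1 overlapped between groups (-0.31, SE 0.40, limma adjusted p = 0.798). Each of these 3 ratios had an exact permutation p of 0.1, the smallest possible, with adjusted p of 0.114 and 0.141 in the 2 tables, so none passed.

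**Figure D3:**
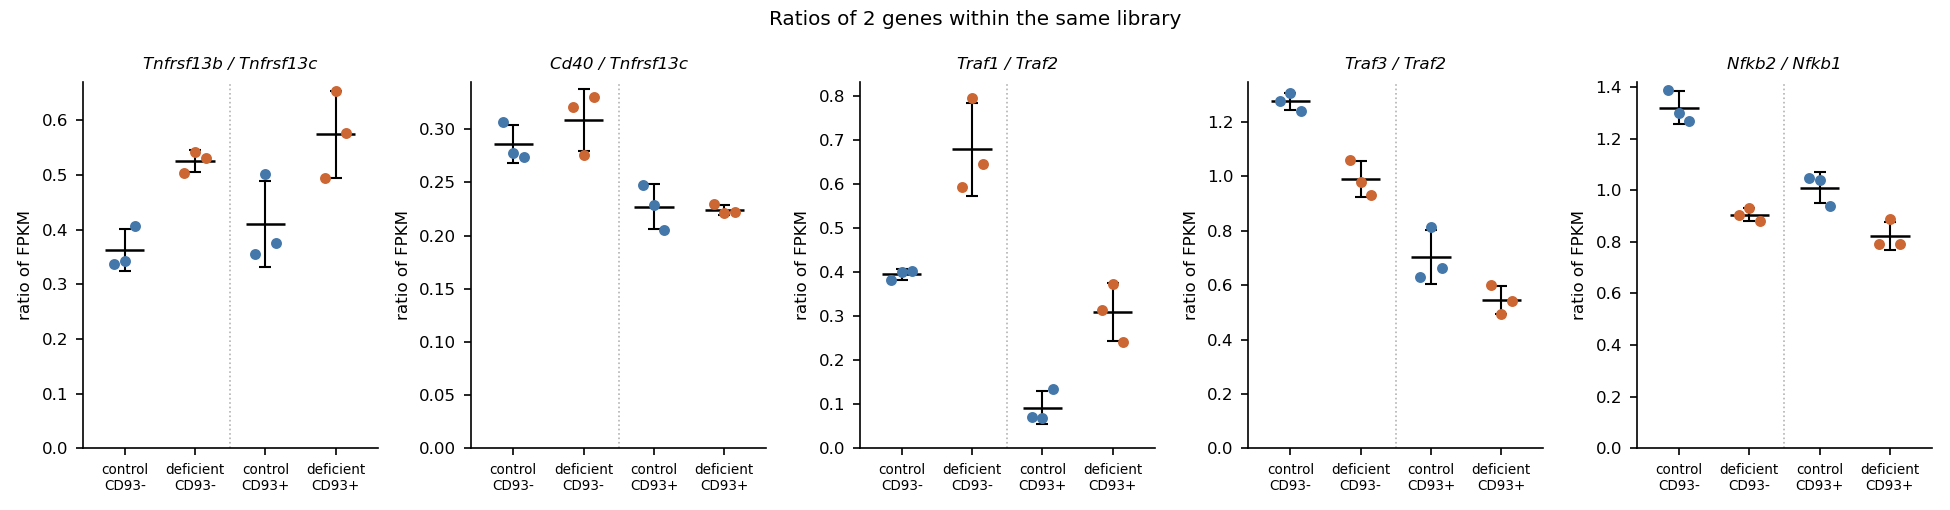
Ratio of the FPKM of 2 genes in the same library (vertical axes, starting at 0) for control (blue) and deficient (orange) libraries. Points are libraries, lines are means and bars SD (n = 3). Traf1 to Traf2 is higher and Traf3 to Traf2 and Nfkb2 to Nfkb1 lower in the deficient groups of both populations, and Cd40 to Tnfrsf13c overlaps.

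Ratios to a B cell gene also move with the level of that gene, so their direction depends on the gene chosen. Against Cd79b, a subunit of the B cell receptor complex that was not called in either table, Tnfrsf13c was lower without overlap in both (log2 differences -0.57 and -0.19) and Traf1 higher without overlap in both (0.64 and 1.92). Cd40 was lower against Cd79b without overlap in CD93-negative cells (-0.46) and overlapped in CD93-positive cells (-0.20).

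The control libraries of the 2 populations are set side by side, with no test. Traf1 to Traf2 spanned 0.381 to 0.403 in CD93-negative controls, whereas CD93-positive controls spanned 0.0699 to 0.135. Traf3 to Traf2 was 1.24 to 1.31 and 0.628 to 0.816. By FPKM, which is per length, the control order of means in CD93-negative cells ran from Tnfrsf13c (172 ± 23.4) over Nfkb2 (83.9 ± 9.20), Tnfrsf13b (62.4 ± 11.8), Cd40 (48.8 ± 4.23), Traf3 (23.9 ± 2.77), Traf2 (18.7 ± 2.28), Traf1 (7.41 ± 1.11), Tnfrsf1b (5.64 ± 0.608) and Cd27 (5.20 ± 1.56) to Tnfrsf17. Ranges over the libraries overlapped between Tnfrsf13b and Cd40 and between Tnfrsf1b, Cd27 and Traf1.

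The genes whose levels over the 12 libraries, centred within each table, were most like those of Tnfrsf13c were Tsc22d3 (r = 0.992), Trp53i11 (0.992) and Sun2 (0.990), of 8086 genes considered. For Traf1 they were Bst2 (0.974), Gimap4 (0.963) and Renbp (0.963). These correlations are descriptions and share each library's scaling.

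Other members of the pathway were taken from lists. Among other TNF receptors, 4 of the 10 at 1 FPKM or more in all 6 CD93-negative libraries rose and none fell, against 18.7% and 2.79% of all genes: Fas, the death receptor (2.43 ± 1.23 to 7.59 ± 0.441 FPKM, log2 change 1.38), Tnfrsf14, which binds LIGHT and BTLA (20.2 ± 2.77 to 34.5 ± 1.31, 0.75), and, outside the naming rule, Tnfrsf26 (0.52) and Relt (0.43). Tnfrsf23, whose close paralogs make its value uncertain, measured 0.627 to 0.813 FPKM in control and 1.51 to 1.55 in deficient libraries and passed the filter only through the latter. After rescaling 3 of the 12 tested were higher and 2 lower, against 17.1% and 23.8% of all genes. In CD93-positive cells none of the 9 receptors at 1 FPKM or more in all 6 libraries was called. Tnfrsf4 (OX40), at 0.735, 0.722 and 1.63 FPKM in controls and 7.37, 8.01 and 1.87 in deficient libraries, and Tnfrsf9 (4-1BB), at 0.261 to 0.667 and 1.06 to 2.99 FPKM, are both known from activated T cells and entered the test through the deficient libraries, so their calls are not counted as support.

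The genes for BAFF, APRIL, CD40 ligand and CD70 were near 0. Tnfsf13b (BAFF) stayed between 0.064 and 0.919 FPKM, and Tnfsf13 (APRIL) and Cd40lg were at most 0.485 and 1.08 FPKM over both tables. No control library had Cd70 above 0, and deficient libraries gave 0.161, 0 and 1.08 FPKM in CD93-negative and 2.104, 0.257 and 0.270 FPKM in CD93-positive cells. None of these 4 passed the filter. Of the 4 ligands at 1 FPKM or more in all 6 CD93-negative libraries, Lta, lymphotoxin alpha, fell (21.1 ± 4.38 to 12.96 ± 0.955 FPKM, -0.65) and the other 3 were not called. Tnfsf4 (OX40 ligand), at 0, 0.211 and 0.491 FPKM in controls and 1.83, 2.46 and 1.97 in deficient libraries, and Tnfsf9 (4-1BB ligand), at 0.386 to 0.579 and 1.499 to 1.69 FPKM, passed the filter only through the deficient libraries, so their calls are not counted as support. None of the 4 ligands tested in CD93-positive cells was called.

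Downstream, the noncanonical list, which shares Nfkb2, Traf2 and Traf3 with the family, had 1 of 10 genes higher in CD93-negative cells, Pebp1 (0.83), and none lower, a smaller share higher than the 18.7% of all genes. After rescaling 1 was higher and 7 lower, against 17.1% and 23.8% of all genes. The 7 included the family members Nfkb2, Traf2 and Traf3, already counted above. Also among the 7 were Map3k14, which encodes NIK (-0.44), and Relb, which encodes the partner of p52 (-0.29). In CD93-positive cells none was called, and after rescaling 1 was higher and 4 lower, against 11.4% and 9.34% of all genes. Traf3 and Nfkb2 were among the 4. Without deficient replicate 3 the rescaled fit gave 1 higher and 2 lower, against 899 and 648 of 11107 genes. Among canonical genes 2 of 17 rose in CD93-negative cells, Bcl3 (33.8 ± 7.09 to 66.1 ± 1.98 FPKM, 0.97) and Nfkbiz (9.28 ± 1.82 to 16.7 ± 0.552, 0.80), both atypical IkB proteins, again a smaller share than the 18.7% of all genes, and none of 17 was called in CD93-positive cells. Rescaling gave 3 higher and 6 lower in CD93-negative cells, against 17.1% and 23.8% of all genes. In CD93-positive cells it gave 2 higher and 3 lower, against 11.4% and 9.34%. Of 18 other TRAF proteins and adaptors, the kinase gene Ripk1 (0.50) and Traip were called higher in CD93-negative cells, also under the 18.7% share, and Traip (0.596 to 1.04 and 1.98 to 3.24 FPKM) passed the filter only through the deficient libraries. None was called in CD93-positive cells. After rescaling 2 were higher and 10 lower, against 17.1% and 23.8% of all genes. The rescaled CD93-positive fit gave 1 higher and 4 lower, against 11.4% and 9.34%. This list of adaptors shares Birc2, Birc3 and Otud7b with the noncanonical list.

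The last list holds genes known to respond to BAFF and CD40 signals or to support survival. In CD93-negative cells 10 of the 17 genes at 1 FPKM or more in all 6 libraries rose and 3 fell, against 18.7% and 2.79% of all genes. All 20 tested had a median of 0.77, against 0.11 over all genes. The kinase gene Pim2 rose from 19.5 ± 2.60 to 55.6 ± 2.48 FPKM (1.47), and Bcl2a1d from 9.80 ± 2.16 to 24.8 ± 0.987 (1.27). The 3 that fell, named after their values were seen, were Cr2 (CD21, -1.25), Fcer2a (CD23, -1.02) and Slamf1 (-0.49). In CD93-positive cells 3 of the 18 genes at 1 FPKM or more in all 6 libraries rose, against 1.67% of all genes. They were the anti-apoptotic genes Bcl2a1a (1.503), Bcl2a1b (1.66) and Bcl2a1d (1.77). Of the 18, 1 fell, Fcer2a (-1.41), against 1.54% of all genes. Cr2 (-1.39) was not at 1 FPKM in every library, so its lower call is not counted as support. The median of all 20 tested was 0.13, against -0.22 over all genes. Without deficient replicate 3, 9 of 20 rose and 2 fell, against 487 and 136 of 11107 genes. The Bcl2a1 copies are near-identical, so their separate values are uncertain. Rescaling gave 12 higher and 5 lower of 20, against 17.1% and 23.8%, and 9 higher and 5 lower, against 11.4% and 9.34%. Proliferation markers, all 12 higher in CD93-negative cells and none of 12 called in CD93-positive cells, and the plasma cell markers above moved beside these genes, and their part was not tested. At 1 FPKM or more in all 6 libraries, 5 of 7 plasma cell markers rose in CD93-negative cells, against 18.7% of all genes. In CD93-positive cells 3 of 6 rose, against 1.67%, and none fell in either population.

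**Figure D4:**
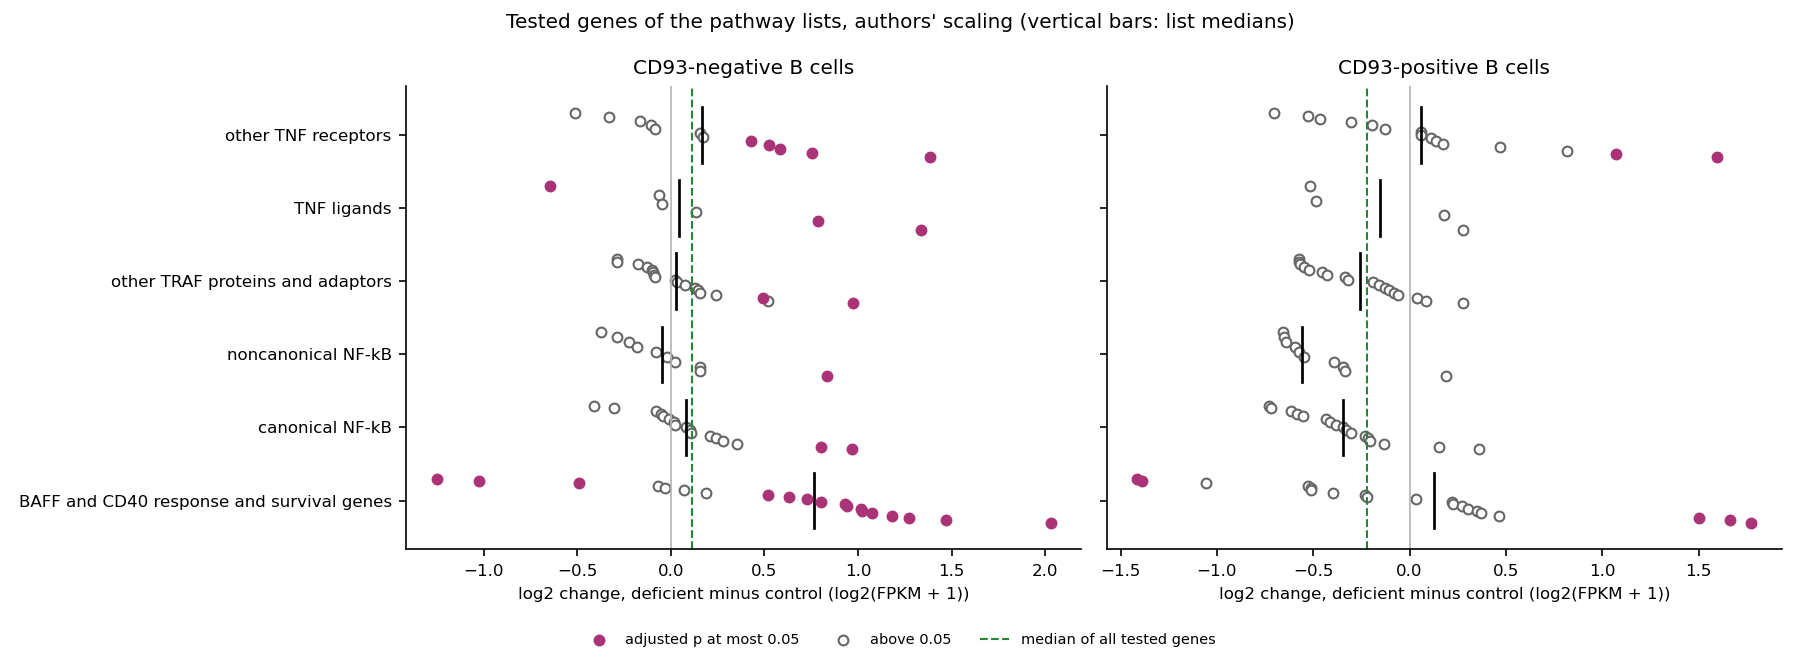
Log2 change (horizontal axis, deficient minus control, authors' scaling) of each tested gene of 6 pathway lists in CD93-negative and CD93-positive B cells. Points are genes, filled where the adjusted p is at most 0.05, black bars are list medians and the green dashed line is the median of all tested genes. The response and survival list has its median furthest right, at 0.77 and 0.13.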

How the data were processed

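Strand-specific RNA-seq libraries were made from total RNA, per the labels' protocols. Cufflinks 2.1.1, TopHat2 2.0.8, Bowtie2 2.1.0 and the mm9 build are named in the submitters' processing notes. The authors deposited FPKM per gene, so read depth is unknown. FPKM summed to 342368 to 463987 per library in the CD93-negative table and to 309359 to 597968 in the CD93-positive one. In the second table, 6 further columns repeat used ones and were not used. Rows that name no gene (2 and 1) were dropped. Genes with at least 1 FPKM in 3 libraries were tested on log2(FPKM + 1) with limma 3.58.1 (R 4.3.3), within each table, without a block. In the CD93-positive fit limma gave genes of like expression 1 shared spread. On simulated data, log2 changes of 1 and 2 were recovered in 89% and 99% of CD93-negative cases (10960 genes) and in 5% and 77% of CD93-positive cases (11250 genes). Noise was drawn for each gene on its own, without a shift shared by a library. Changes were placed only in genes with a mean log2(FPKM + 1) above 3, so these rates do not cover lower genes. Ratios were compared by exact permutation. Genes named are the members, up to 3 called genes of each list with the largest change, and the 3 most alike. Members, lists and rules were chosen with earlier results of these data known. Alternatives were the pseudocount, filter, scaling, variance model, sex, replicate number and each library left out. Fits that combine rescaling with the block, sex or no trend were chosen after seeing the data. Some genes that the naming rule or the ratios cover are not reported here.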

Additional observations from a re-analysis of the deposited data

Results flagged for a closer look

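In CD93-negative cells the ratio of Tnfrsf13b to Cd79b was below the control mean in all 3 deficient libraries (log2 difference -0.0234), and in CD93-positive cells it was above it in all 3 (0.31). The groups overlapped in both (exact permutation p = 0.9 and 0.2), control replicate 1 lay below every deficient CD93-negative library, and the SD of the controls on the log2 scale was 0.18 and 0.25. The ratio of Traf2 to Cd79b was lower in all 3 deficient CD93-negative libraries (-0.126) and higher in all 3 deficient CD93-positive libraries (0.12), without overlap (exact permutation p = 0.1 in both, adjusted p = 0.114 and 0.141). The difference between the populations was not tested in either case.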

How the results depend on the processing

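No result reversed its direction after being called. In CD93-negative cells the count of genes called, 2351, became 4478 after upper quartile rescaling, 4198 after quantile normalization and 3689 with rescaling and a replicate block, and 1368 to 3247 with 1 library left out. Members called, 2, became 1 with no filter, 6 with rescaling, quantile normalization or rescaling and block, and 1 to 5 with 1 library left out. In CD93-positive cells the count of genes, 361, became 16 with no filter, 168 with the 5 FPKM filter, 2331 after rescaling, 2230 after quantile normalization, 188 with no trend, 127 with sex, 1547 with rescaling without deficient replicate 3, 2053 with rescaling and no trend, 570 with rescaling and sex, 898 with rescaling and block, and 139 to 623 with 1 library left out. Members called, 1, became 0 with no filter, the 5 FPKM filter, no trend, sex, the replicate block or rescaling and block, 6 with rescaling (also with no trend), 5 with quantile normalization or rescaling without deficient replicate 3, and 0 to 3 with 1 library left out. The cause was not tested.

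The replicate block gave 2874 genes and 2 members in CD93-negative cells and 237 genes and 0 members in CD93-positive cells. Replicate numbers are shared in the labels, but deviations of same-numbered libraries correlated at 0.02, -0.11 and -0.09, and at 0.17, -0.11 and -0.14, so they were not taken as pairs. FPKM without counts leaves the counting error of low genes such as Tnfrsf17 unknown, and the CD93-positive fit recovered few changes of 1 on simulated data.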
